A study of Mus musculus with 29 samples.

Results

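The genes described here are those of antigen presentation on major histocompatibility complex (MHC) class II: Cd74, H2-Aa, H2-Ab1, H2-Eb1, H2-DMa, H2-DMb1, H2-DMb2, H2-Oa, H2-Ob and Ciita. They were chosen by name, with earlier results of these data known, and all 10 were found among the 13982 genes of the table. RNA was measured in 14 Ion Torrent libraries of poly(A) RNA from (NZBxNZW)F1 (NZB/W) mice, a cross that develops an autoimmune disease like lupus with nephritis. Proteinuric mice gave 4 libraries of kidney tissue (mice H115, H117, H20 and H6, aged 25, 32, 36 and 39 weeks), 3 of tertiary lymphoid structures (TLS; mice H115, H20 and H6) and 3 of lymph node (mice H117, H20 and H6). TLS are immune aggregates within the kidney, which were dissected by hand under a loupe, and the kidney tissue came from the same kidney. Lymph nodes of mice positive for anti-dsDNA antibodies gave 3 libraries (mice D10, D11 and L25, aged 28, 29 and 18 weeks), and 1 lymph node library came from a young mouse of 4 weeks (mouse C45). All groups were of this strain, and the labels give no treatment. The miRNeasy kit served for the antibody-positive lymph nodes and TRIzol for all other libraries. Kit and stage thus cannot be told apart where antibody-positive lymph nodes are set against the other lymph nodes.

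MHC class II molecules are pairs of an alpha and a beta chain that carry peptides of ingested proteins to the surface of B cells, dendritic cells and macrophages, where CD4 T cells read them. The invariant chain, encoded by Cd74, escorts the newly made pair to endosomes and blocks its groove until it is cut down to a short fragment. H2-DM exchanges this fragment for peptides, H2-O holds H2-DM in check in B cells, and CIITA, encoded by Ciita, switches on the whole set of genes through factors of the RFX, CREB and NF-Y families, which sit on 2 short boxes before the start sites. In lupus, presentation of self antigens on class II is part of the help that B cells receive from T cells.

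The 8 H2 genes lie on chromosome 17 in the class II region (GRCm38, GENCODE), from H2-Oa at chr17:34092340-34095234 on the plus strand to H2-Eb1 at chr17:34305867-34316674 on the plus strand, and Ciita lies on chromosome 16. The stretches before the start sites carry the boxes through which the genes are switched on together, so they are shown for the members in which they were found outside exons. RefSeq start sites (GRCm38.p6, C57BL/6J sequence) were matched for 7 members, H2-Oa, H2-DMa, H2-DMb1, H2-DMb2, H2-Ob, H2-Aa and H2-Eb1. In the 250 bases before the start, the Y box letters TGATTGG were present on either strand in 6 of these members (not at either start site of H2-DMa), against 7.23% of 32851 windows of that length. The letters ATGATGC of the X box, which do not overlap with the Y box letters, were present on either strand in 4 members (H2-DMb1, H2-DMb2, H2-Eb1 and H2-Ob), against 1.99% of windows. Both stood together in 53 windows, or 0.161%, of the whole table, and these included all 4 members. The letters searched for were chosen after these sequences had been read, so the shares are a description. In the following windows of 46 bases, written 5′ to 3′ on the strand of the gene, the capitals mark the letters of the X box, where they were found, and after them those of the Y box.
H2-DMb2 (chr17:34145121-34145166, plus strand): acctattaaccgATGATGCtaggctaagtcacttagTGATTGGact
H2-Eb1 (chr17:34305770-34305815, plus strand): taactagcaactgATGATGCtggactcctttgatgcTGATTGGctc
H2-Ob (chr17:34238810-34238855, plus strand): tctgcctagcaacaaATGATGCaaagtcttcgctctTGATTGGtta
H2-Aa (chr17:34287864-34287909, minus strand): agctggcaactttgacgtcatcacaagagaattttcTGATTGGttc
Between the Y box and the start site lay 85 bases in H2-DMb2, 54 in H2-Eb1, 52 in H2-Ob and 43 in H2-Aa. Between the X and the Y box lay 17 bases in H2-DMb2, 16 in H2-Eb1 and 14 in H2-Ob. In the H2-Aa window the X letters were not found, which says only that these letters are not in this window.

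The libraries held between 343825 and 443379 reads, and 3 reads, taken as the floor, were worth a normalized value between 2.36 and 5.32. Ribosomal RNA genes took 59.6% of the reads of kidney H117, 32.7% of lymph node H6 and 24.6% of TLS H115, and at most 7.57% of the others. Tubule markers (Lrp2, Slc34a1, Umod, Slc12a1 and Aqp2) had no read in any of the 7 lymph node libraries, and their summed level was between 1055 and 4286 in kidney and between 725 and 1541 in TLS. RNA of kidney tubule was thus present in TLS. The 6 B-cell markers (Cd79a, Cd79b, Ms4a1, Cd22, Blnk and Pax5) summed to between 2.32 and 23.6 in kidney, with Ms4a1 and Pax5 at 0 reads, to between 300.2 and 439 in TLS and to between 541 and 1068 in lymph nodes.

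The 10 genes together took 0.227% ± 0.194 (SD, n = 4) of the reads of kidney, 0.960% ± 0.515 (n = 3) of TLS, 1.53% ± 0.578 (n = 3) of proteinuric lymph nodes, 1.72% ± 0.764 (n = 3) of antibody-positive lymph nodes and 1.32% of the young lymph node. In kidney the share was 0.0888% in mouse H115, 0.0647% in mouse H117, 0.484% in mouse H20 and 0.272% in mouse H6. In TLS it was 0.551% in mouse H115, 0.791% in mouse H20 and 1.54% in mouse H6, and the lowest TLS library lay above the highest kidney library. Lymph nodes ranged from 0.892% in mouse H6 to 2.50% in mouse D11 and overlapped with TLS. The lowest library of a tissue depended on the reads counted. Of the reads outside ribosomal RNA, the 10 genes took 0.0940%, 0.160%, 0.501% and 0.278% in kidney H115, H117, H20 and H6, so that H115 was the lowest, and 0.730%, 0.810% and 1.57% in TLS H115, H20 and H6. On this scale lymph node H6 stood at 1.33%, and the lymph nodes ranged from 1.06% in mouse L25 to 2.65% in mouse D11. TLS lay above kidney and overlapped with lymph nodes on both scales. Counting error was small beside these differences: the 95% Wilson interval of the lowest library by all reads, kidney H117, was 0.0571% to 0.0733%. In bulk libraries, fewer cells that express these genes and less RNA per cell cannot be told apart.

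**Figure D1:**
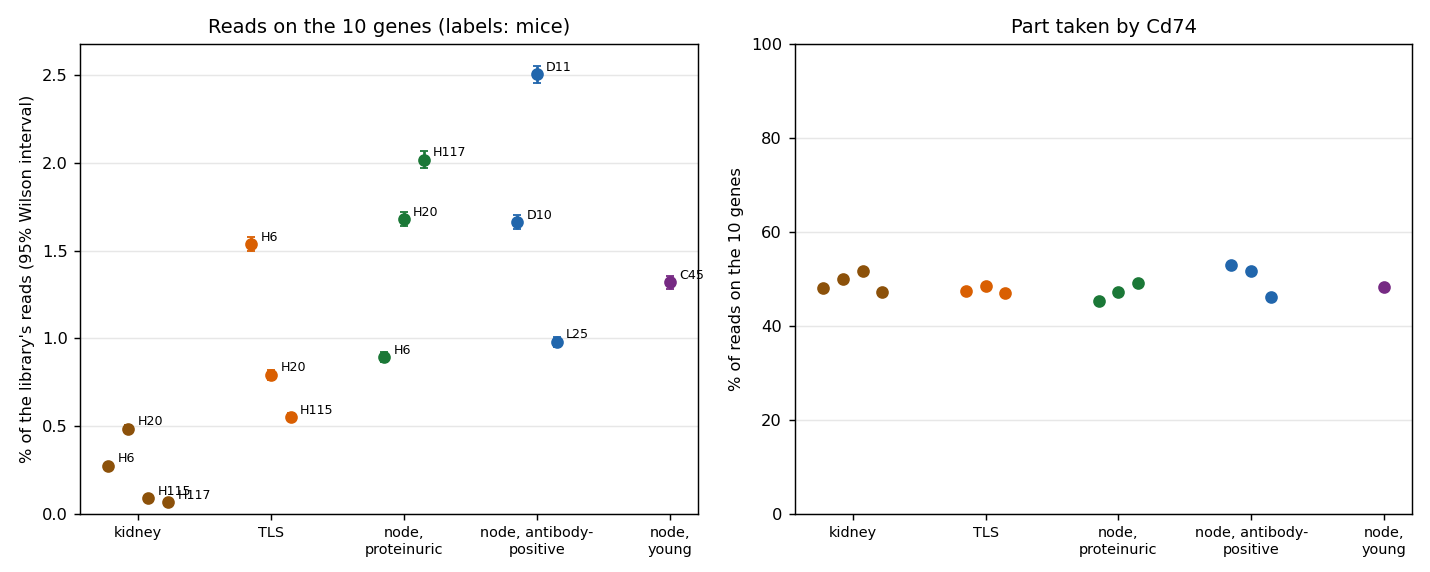
Share of each library's reads on the 10 genes (left, in %, with 95% Wilson intervals and mouse numbers) and the part of these reads that fell on Cd74 (right, in %), for kidney, TLS and the 3 groups of lymph nodes. The 3 TLS libraries (0.551% to 1.54%) sit above the 4 kidney libraries (0.0647% to 0.484%), while the part of Cd74 stays between 45.4% and 52.9% in all 14 libraries.

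Cd74 took about the same part of the class II reads everywhere, from 45.4% in lymph node H6 to 52.9% in lymph node D10. Its level per H2-Ab1 level was between 2.31 and 4.25 in the 14 libraries, with means of 3.11 ± 0.649 (SD, n = 4) in kidney, 3.80 ± 0.186 (n = 3) in TLS and 3.23 ± 0.819 (n = 3) in proteinuric lymph nodes, and these groups overlapped. Divided by transcript length (reads per size factor and kilobase), the order of levels in proteinuric lymph nodes was Cd74 (2052 ± 152, SD, n = 3), H2-Ab1 (844 ± 191), H2-Eb1 (756 ± 28.1), H2-Aa (644 ± 170), H2-DMb2 (69.4 ± 22.5), H2-DMa (42.3 ± 1.95), H2-Ob (32.0 ± 9.11), H2-DMb1 (31.8 ± 6.19), H2-Oa (21.8 ± 8.58) and Ciita (3.24 ± 1.73). Cd74, the classical chains as a group, the exchange and inhibitor genes as a group, and Ciita were separated beyond their spread. Within the 3 classical chains, between H2-DMb2 and H2-DMa, and from H2-DMa down to H2-Oa, neighbours overlapped or lay within 1 SD of each other. In TLS the levels per kilobase were lower, at 1201 ± 540 (SD, n = 3) for Cd74, 501 ± 196 for H2-Aa, 419 ± 225 for H2-Eb1, 402 ± 166 for H2-Ab1, 42.9 ± 24.6 for H2-DMb2 and 1.30 ± 0.635 for Ciita. In kidney they were 287 ± 190 (SD, n = 4) for Cd74, 119 ± 72.1 for H2-Ab1, 92.4 ± 61.2 for H2-Aa and 91.9 ± 60.4 for H2-Eb1, and H2-DMb1 (6.87 ± 4.34), H2-DMa (6.36 ± 5.31) and H2-DMb2 (4.94 ± 4.43) followed. H2-DMb1 and H2-DMb2 are near copies that share 22.7% and 21.2% of their 50-base stretches, so reads may have been split between them. H2-DMa, H2-Oa and Ciita overlap genes on the other strand (Brd2, BC051537 and Dexi) over 360, 321 and 329 exon bases. Cd74, outside the class II region, lies at chromosome 18 (60803848 to 60812652, plus strand). The reads were mapped to the C57BL/6J genome, whose class II alleles differ from those of NZB and NZW. A loss of reads at mismatches was not tested.

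Kidney versus TLS asked which genes the aggregates express above the kidney around them. All 10 class II genes were up-regulated in TLS (limma, adjusted p under 0.05), where 14.7% of the 7382 genes tested were DE in either direction and 8.62% were higher in TLS. Their log2 fold changes ran from 1.50 (H2-DMb1) to 3.06 (H2-Ob) with a median of 2.23, and the median over all genes tested was -0.01. In all 10 genes the lowest TLS library lay above the highest kidney library, which was so for 13.4% of genes tested. H2-Oa, H2-Ob and Ciita had 0 or 1 read over all kidney libraries and passed the filter on low values through the TLS and lymph node libraries, so their calls add no support to those of the other 7 genes. When only kidney and TLS libraries were fitted, Ciita did not pass the filter and 7 of the 9 genes tested were DE.

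Cd74 had a normalized value of 196, 206, 742 and 402 in kidney H115, H117, H20 and H6, and of 1254, 1143 and 2452 in TLS H115, H20 and H6. Kidney H20 was the highest kidney library and TLS H6 the highest TLS library, and the groups did not overlap. The log2 fold change was 2.19 (SE 0.52, adjusted p = 0.0137, limma), a 4.58-fold difference. The classical chains followed the same pattern. H2-Ab1, the beta chain of the A molecule, had values of 51.0, 87.0, 224 and 142 in kidney H115, H117, H20 and H6, and of 350, 297 and 622 in TLS H115, H20 and H6 (log2 fold change 1.87, SE 0.50, adjusted p = 0.0257, limma). H2-Aa, its alpha chain, lay between 42.6 and 173 in kidney and between 348 and 708 in TLS (2.56, SE 0.50, adjusted p = 0.00468, limma). H2-Eb1, the beta chain of the E molecule, lay between 71.9 and 296 in kidney and between 440 and 1130 in TLS (2.26, SE 0.51, adjusted p = 0.0110, limma). Kidney H20 was again the highest kidney library of each chain.

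The gene of the E alpha chain, annotated in the C57BL/6J genome as a polymorphic pseudogene (H2-Ea-ps) because that strain has lost its promoter, is no member of the set but completes the E molecule. It had values between 49.7 and 186 in kidney, between 464 and 605 in TLS and between 680 and 1029 in the lymph nodes of all stages. It was up-regulated in TLS over kidney (log2 fold change 2.38, SE 0.46, adjusted p = 0.0044, limma). H2-Eb2, another class II beta chain gene, had 0 reads in kidney, between 1 and 7 in TLS and between 3 and 11 in lymph nodes.

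The genes of peptide exchange were lower than the classical chains and moved in the same direction. H2-DMb2, a beta chain of H2-DM, had a value of 3.47, 3.55, 16.0 and 9.73 in kidney H115, H117, H20 and H6, and of 48.0, 36.2 and 102 in TLS H115, H20 and H6 (log2 fold change 2.87, SE 0.52, adjusted p = 0.00301, limma). H2-DMa, the alpha chain, lay between 3.48 and 19.5 in kidney and between 29.1 and 60.2 in TLS (1.96, SE 0.52, adjusted p = 0.0237, limma). H2-DMb1, the other beta chain, lay between 5.32 and 17.7 in kidney and between 19.6 and 46.6 in TLS (1.50, SE 0.42, adjusted p = 0.0313, limma). The groups did not overlap in any of the 3 genes. In kidney H115 and H117, H2-DMa had 2 and 2 reads, H2-DMb2 2 and 1, and H2-DMb1 5 and 2. All of these but the 5 were under the floor of 3 reads. In kidney H20 and H6 the 3 genes had between 10 and 21 reads. H2-DMb2 took 28.6% to 47.4% of the reads on both beta chain genes in kidney, 57.0% to 71.7% in TLS and 64.2% to 72.5% in the 7 lymph nodes. The kidney libraries rest on few reads: over the 4 of them, H2-DMb2 had 31 of 72 reads (43.1%, exact 95% interval 31.4% to 55.3%), against 207 of 312 (66.3%, 60.8% to 71.6%) over the 3 TLS libraries.

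H2-Oa and H2-Ob, the chains of the inhibitor of H2-DM, were almost absent from the kidney libraries. H2-Ob had 0 reads in kidney H115, H117 and H6 and 1 read in kidney H20. It had 6, 34 and 34 reads in TLS H115, H20 and H6, normalized values of 7.63, 27.5 and 29.7. The ratio of TLS to kidney over the pooled reads was 82.2, with an exact counting interval of 14.3 to 3291, and the fitted log2 fold change was 3.06 (SE 0.42, adjusted p = 0.00052, limma). H2-Oa had 0 reads in all 4 kidney libraries and 8, 11 and 25 reads in TLS H115, H20 and H6. Against 3 reads over the kidney group it was at least 16.3-fold higher in TLS. Ciita, the transactivator, also had 0 reads in all 4 kidney libraries, and 3, 6 and 10 reads in TLS H115, H20 and H6. It was at least 7.04-fold higher in TLS on the same floor. With H2-Oa and Ciita at these bounds the median log2 fold change of the 10 genes was 2.41.

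**Figure D2:**
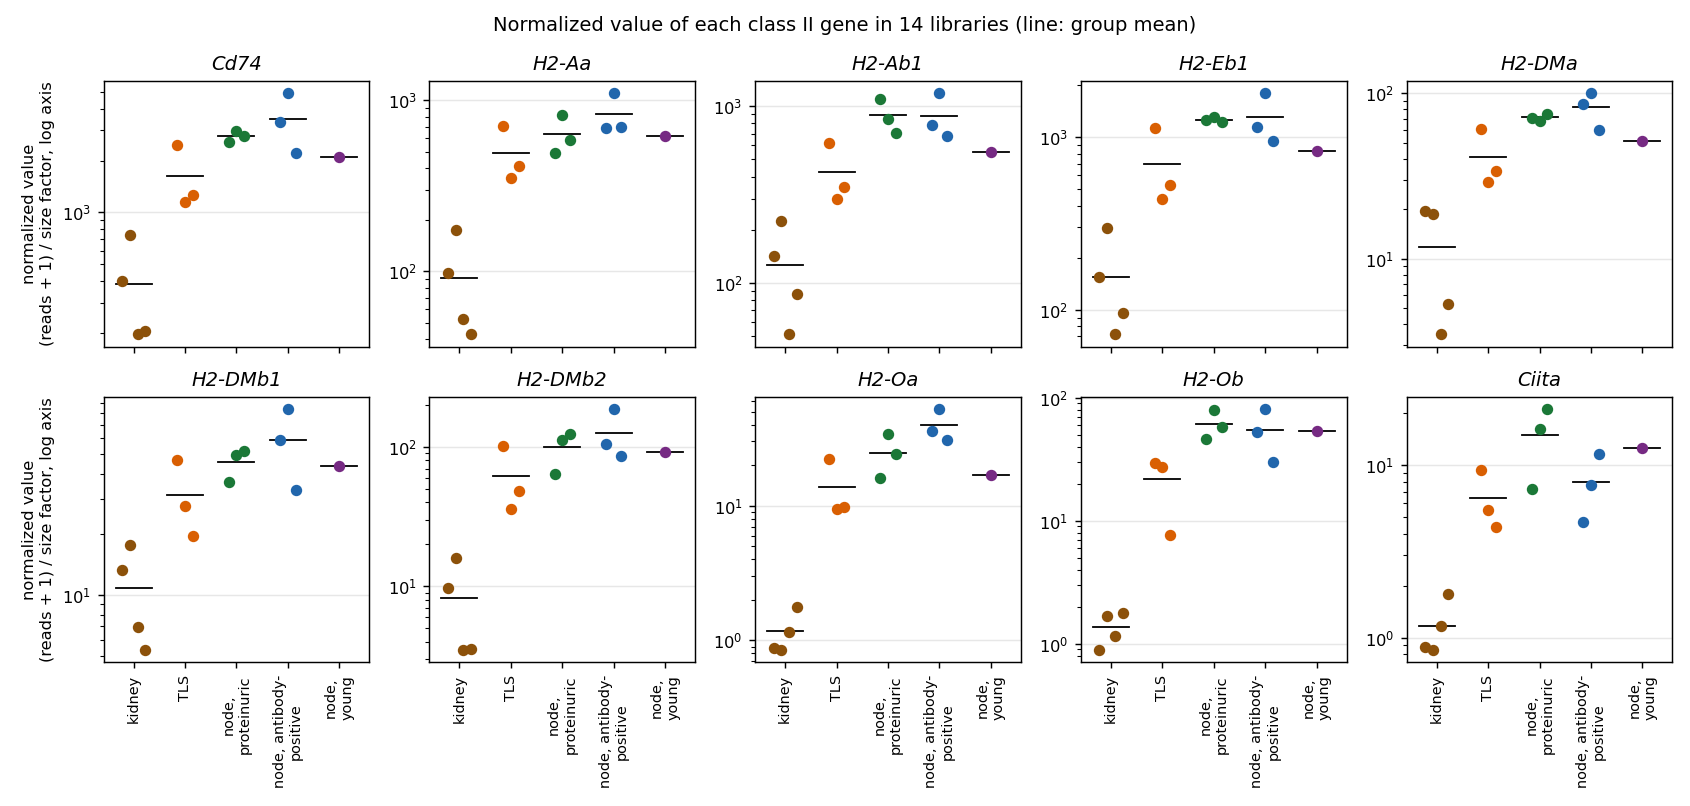
Normalized value (reads plus 1, divided by the size factor, log axis) of each of the 10 genes in the 14 libraries, with a line at the group mean. In every panel the TLS points lie above all kidney points, and kidney points of H2-Oa and Ciita show 0 reads (the added 1 read over the size factor).

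Within each mouse with both tissues, all 10 genes were higher in TLS than in the kidney of the same animal, and 21% of genes tested were higher in TLS in all 3 mice. The difference varied between mice. The median over the 10 genes was 2.71 (log2) in mouse H115 and 2.72 in mouse H6, and 0.81 in mouse H20, whose kidney library was the highest of the 4. For Cd74 it was 2.67, 2.60 and 0.62 in mice H115, H6 and H20, and for H2-Ab1 2.76, 2.12 and 0.40. H2-Ob gave 3.41 in mouse H20, within its range of 2.00 to 4.03 in the other mice. The calls depended on single libraries. Without TLS H6, only H2-Aa, H2-DMb2, H2-Oa and H2-Ob were DE, 4 of 10, against 7.16% of all genes tested in that fit. Among these, H2-Oa and H2-Ob had 0 and 1 read over all kidney libraries, so their calls add no support. Without the 3 libraries richest in ribosomal RNA, 6 of 10 were DE, against 14.8% of all genes, and the adjusted p of Cd74 was 0.0741 (limma). All 10 log2 fold changes were above 0 in each of these fits.

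Markers of other cell types moved with the class II genes. In kidney H115, H117, H20 and H6, the summed level of 7 macrophage markers (Cd68, Adgre1, Csf1r, Cd14, C1qa, C1qb and Mrc1) was 132, 83.4, 458 and 350, and that of the 10 class II genes was 377, 433, 1483 and 834. Both sums were highest in mouse H20, and lower in mice H115 and H117 than in mice H20 and H6. That split was not particular to macrophage markers. In the same order, dendritic cell markers summed to 1.16, 0, 7.59 and 5.30 and T-cell markers to 0, 0, 5.90 and 1.77. Plasma cell markers summed to 45.2, 47.9, 110 and 142 and endothelial markers to 31.3, 12.4, 47.2 and 52.2. B-cell markers (2.32, 16.0, 23.6 and 10.6) and tubule markers (4286, 1470, 1055 and 1270) did not split this way. The macrophage sum was between 419 and 987 in TLS, with 2 of 6 markers tested, C1qa and C1qb, called higher in TLS. All 6 of 6 B-cell markers were called higher in TLS, with a median log2 fold change of 2.87, where 8.62% of genes tested were called higher. All 3 of 3 dendritic cell markers tested (Itgax, Ccr7 and Fscn1) and all 4 of 4 T-cell markers tested were called higher as well. Ms4a1, Pax5, Ccr7 and Cd5 had 0 reads in kidney. In kidney H115, H117, H20 and H6, the T-cell markers together had 0, 0, 7 and 2 reads, and the dendritic cell markers 1, 0, 9 and 6. Ms4a1, Pax5 and the tested T-cell and dendritic cell markers passed the filter on low values through the TLS and lymph node libraries. Their calls add no support to those of the other markers. The class II sum over the B-cell sum was between 7.85 and 11.8 in TLS and between 7.67 and 10.1 in the 7 lymph nodes, which overlap, and between 27.1 and 78.6 in the 3 kidney libraries with more than 3 B-cell reads. The class II sum over the macrophage sum was between 2.38 and 5.19 in kidney, between 5.24 and 5.62 in TLS, and between 6.02 and 13.7 in lymph nodes. Over 6 dendritic cell markers (with Zbtb46, Xcr1 and Clec9a, which were not tested) it was between 66.3 and 102 in TLS, between 37.9 and 86.4 in lymph nodes, and 157 and 195 in the 2 kidney libraries with more than 3 such reads. The part of each cell type in the class II levels was not tested.

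**Figure D3:**
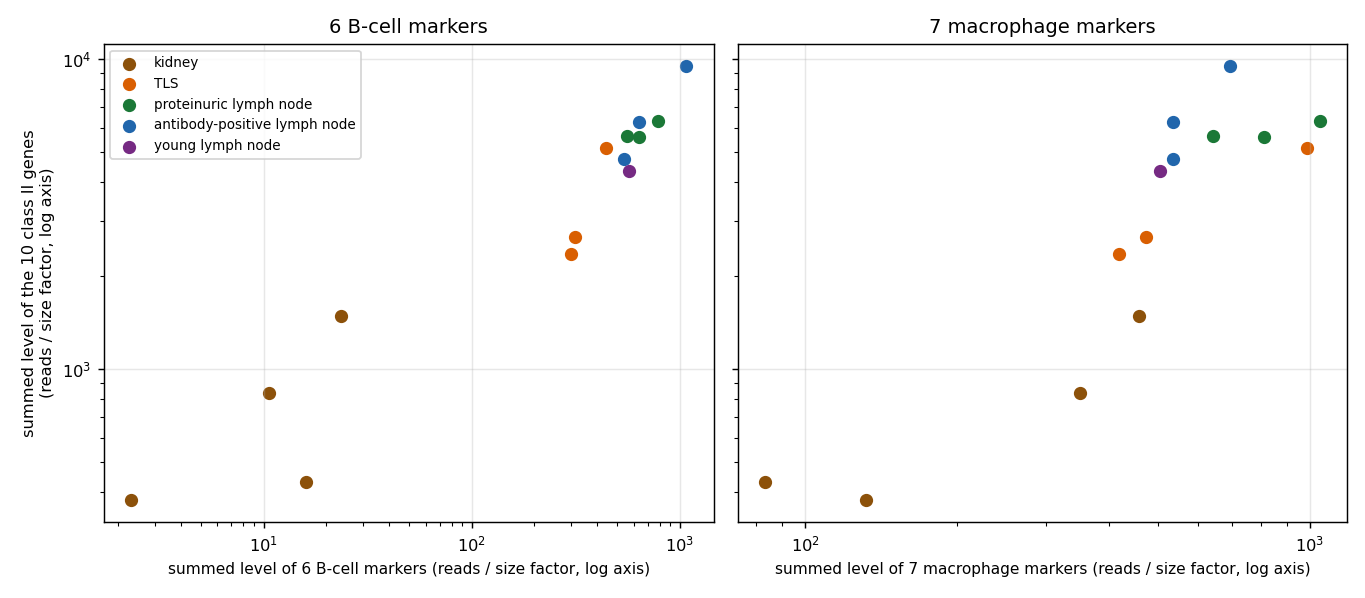
Summed level of the 10 class II genes (y axis) against the summed level of 6 B-cell markers (left) and of 7 macrophage markers (right), in reads over the size factor on log axes, 1 point for each of the 14 libraries. TLS and lymph node points have a class II sum of 7.67 to 11.8 times the B-cell sum, while 3 kidney points lie at 27.1 to 78.6 times; the kidney point farthest left has 2 B-cell reads.

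Kidney versus lymph node gave the largest differences. All 10 genes were up-regulated in the proteinuric lymph nodes, where 43.8% of genes tested were DE in either direction and 20.8% were higher in lymph node. This comparison and that of kidney versus TLS share the 4 kidney libraries. Here too, H2-Oa, H2-Ob and Ciita had 0 or 1 read over all kidney libraries. They passed the filter on low values through the lymph node and TLS libraries. Their calls and their lack of overlap with kidney thus add no support to those of the other genes. The log2 fold changes ran from 2.10 (H2-DMb1) to 4.69 (H2-Ob) with a median of 3.02 (3.14 with H2-Oa and Ciita at their bounds), against 0.05 over all genes tested. Cd74 had a value of 2757, 2967 and 2558 in lymph node H117, H20 and H6 and was 8.29-fold higher than in kidney (log2 fold change 3.05, SE 0.52, adjusted p = 0.00043, limma). H2-Eb1 was even more alike in the 3 lymph nodes, at 1220, 1313 and 1253 (3.23, SE 0.51, adjusted p = 0.000256, limma). H2-Ob had 70, 83 and 31 reads in lymph node H117, H20 and H6, and its pooled ratio to kidney was 231 (exact counting interval 40.9 to 9173). H2-Oa was at least 31.0-fold and Ciita at least 18.8-fold higher than in kidney, with 74 and 45 reads over the 3 lymph nodes. No lymph node library overlapped with a kidney library in any of the 10 genes, which was so for 23.3% of genes tested in that direction, and all 10 were higher within each of mice H117, H20 and H6, as were 29.8% of genes tested. All 10 stayed DE when any 1 library, or the 3 libraries richest in ribosomal RNA, was left out.

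Lymph node versus TLS asked whether the aggregates reached the levels of the lymph node. Of the 10 genes, 1 was DE, H2-Ob, where 10.6% of genes tested were DE in either direction and 1.69% were higher in lymph node. H2-Ob had a value of 57.5, 79.6 and 46.4 in lymph node H117, H20 and H6, above all 3 TLS libraries (7.63, 27.5 and 29.7), and its log2 fold change was 1.63 (SE 0.45, adjusted p = 0.0367, limma). With the mouse as a replicate block it was 1.33 (adjusted p = 0.116, limma), and without TLS H115 it was 1.04 (adjusted p = 0.128). The call was also lost in the count tests on reads (edgeR, adjusted p = 0.119; DESeq2, adjusted p = 0.108). All 10 estimates were above 0, from 0.40 (H2-Aa) to 1.63, with a median of 0.85 against 0.04 over all genes tested. Markers of other cell types moved as well. All 5 of 5 tubule markers were called lower in lymph node (median -5.02), Cd3d and Cd3e of 4 T-cell markers and Ccr7 of 3 dendritic cell markers were called higher, and none of 6 B-cell markers was called, with a median of 0.80. Their part in the class II differences was not tested. The intervals were wide. For Cd74 the estimate was 0.86 with a 95% interval of -0.35 to 2.07, for H2-Aa 0.40 (-0.76 to 1.56) and for H2-Ab1 1.12 (-0.05 to 2.29). Equal levels and a lymph node excess of more than 2-fold were thus both within the interval of these genes. In 5 of 10 genes (Cd74, H2-Ab1, H2-Eb1, H2-DMa and H2-Ob) the lowest lymph node library lay above the highest TLS library, which was so for 9.48% of genes tested. The 2 mice with both tissues differed. In mouse H20 all 10 genes were higher in lymph node than in TLS, with a median of 1.45 (log2), and in mouse H6 they were higher in 5 of 10, with a median of -0.13. The share of all genes higher in lymph node within each mouse was not computed. TLS H6 was the highest TLS library of all 10 genes and lymph node H6 had 32.7% of its reads on ribosomal RNA.

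**Figure D4:**
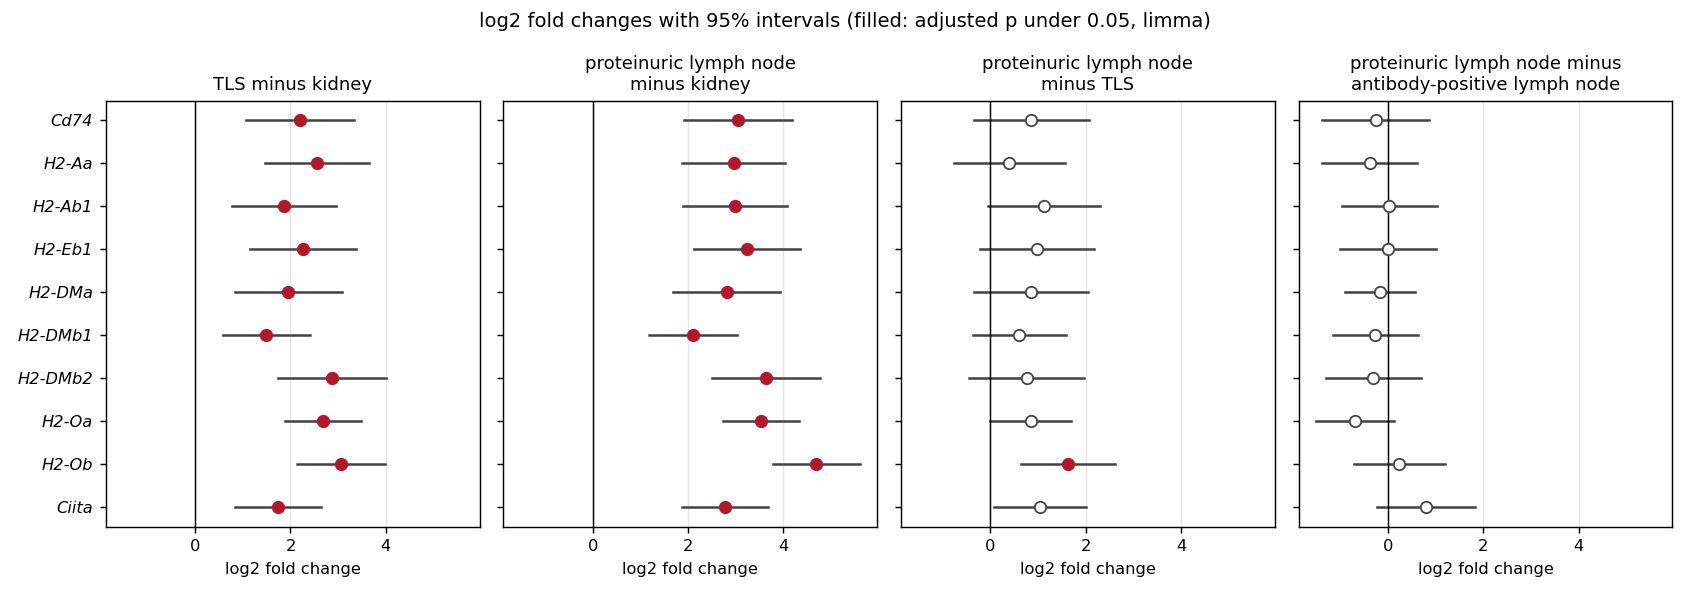
log2 fold changes (x axis) with 95% intervals for the 10 genes in the 4 comparisons, from limma on log2(value + 1), filled where the adjusted p was under 0.05. All 10 are filled over kidney in TLS (1.50 to 3.06) and in lymph node (2.10 to 4.69), 1 is filled for lymph node over TLS (H2-Ob) and none between the lymph node stages.

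Reads on the inhibitor were set against reads on the genes it inhibits. H2-Oa and H2-Ob together took 0% of the H2-O and H2-DM reads in kidney H115 (of 9 reads), H117 (of 5) and H6 (of 45), and 1.67% in kidney H20 (1 of 60). Over the group this was 1 of 119 reads (0.840%, exact 95% interval 0.0213% to 4.59%). In TLS H115, H20 and H6 the share was 13.5% (95% Wilson interval 8.19% to 21.3%), 28.1% (21.7% to 35.5%) and 19.5% (15.5% to 24.4%). In the 7 lymph nodes it was between 24.5% and 33.0%. It was 25.8% ± 0.697 (SD, n = 3) in antibody-positive and 27.9% ± 4.46 (SD, n = 3) in proteinuric lymph nodes. TLS H20 lay within the range of the lymph nodes, and TLS H115 and TLS H6 lay below all of them. Per kilobase, H2-O over H2-DM was 0.263 ± 0.0953 (SD, n = 3) in TLS and 0.373 ± 0.0862 (SD, n = 3) in proteinuric lymph nodes, a difference of the size of the spread. H2-O is known to be made mostly by B cells. The summed B-cell markers were at 312, 300.2 and 439 in TLS H115, H20 and H6, and their part in the H2-O share was not tested.

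**Figure D5:**
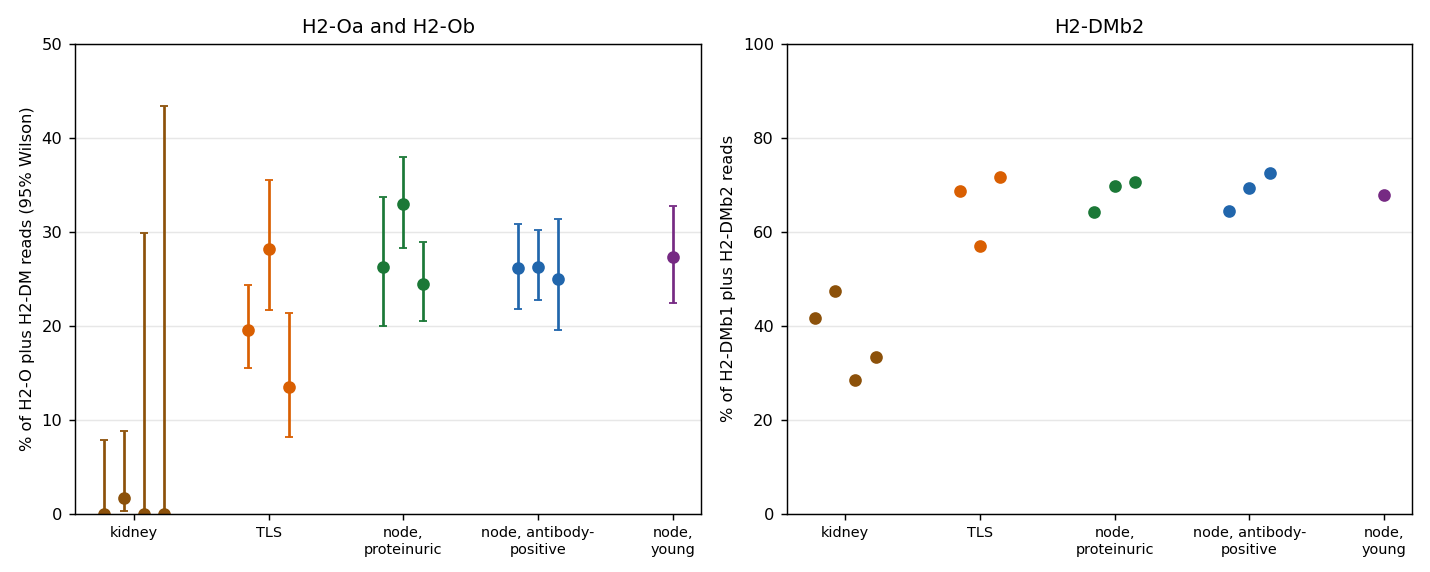
Share of H2-Oa and H2-Ob in the reads on H2-O and H2-DM genes (left, in %, with 95% Wilson intervals) and share of H2-DMb2 in the reads on H2-DMb1 and H2-DMb2 (right, in %), 1 point per library. Kidney points lie at 0% to 1.67% on the left and at 28.6% to 47.4% on the right, below TLS (13.5% to 28.1% and 57.0% to 71.7%) and lymph nodes (24.5% to 33.0% and 64.2% to 72.5%).

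Antibody-positive versus proteinuric lymph node compared 2 stages of the disease. None of the 10 genes was DE (limma), and none passed an unadjusted p of 0.05, which 3.16% of the 6810 genes tested did; 0% of all genes were DE with limma, edgeR called none, and DESeq2 called 13 genes, none of them a member. The libraries overlapped in all 10 genes; over all genes tested, 2.5% did not overlap with proteinuric lymph nodes higher and 6.08% with antibody-positive ones higher. Cd74 had a value of 3326, 4923 and 2203 in lymph node D10, D11 and L25, against 2757, 2967 and 2558 in the proteinuric ones (proteinuric minus antibody-positive log2 fold change -0.26, 95% interval -1.38 to 0.86). The 2 estimates farthest from 0 were those of Ciita (0.79, -0.24 to 1.81) and H2-Oa (-0.69, -1.52 to 0.13). Ciita had 4, 7 and 9 reads in lymph node D10, D11 and L25, and 25, 16 and 4 in lymph node H117, H20 and H6. Lymph node D11 was the highest of all 14 libraries in 9 genes, and lymph node L25, of the mouse aged 18 weeks, was the lowest of its group in 8. Shares over all genes were not computed for these counts. In the young lymph node, 4 genes had values below all 6 other lymph node libraries, which 10.9% of 6810 genes did, and none of the 10 lay above them, which 10% did. They were Cd74 (2099, against 2203 to 4923), H2-Ab1 (549, against 678 to 1187), H2-Eb1 (833, against 949 to 1802) and H2-DMa (51.0, against 59.7 to 99.9). H2-Ob (53.7) and Ciita (12.5) lay within the range of the others. The 6 other lymph node libraries joined both kits, and the young library was made with TRIzol. With 1 library the young stage has no replicate check.

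The other genes of the pathway moved less uniformly than the members. Of 6 genes of antigen processing in endosomes, Ctss and Ifi30 were up-regulated in TLS over kidney and none was down-regulated. Ctss, the cathepsin that trims the invariant chain, rose by 2.27 (log2, SE 0.53, adjusted p = 0.0132, limma), and Ifi30, the reductase that opens disulfide bonds of antigens, by 1.52 (SE 0.37, adjusted p = 0.0160). In lymph node over kidney both were higher too, and Ctsl and Lgmn, a cathepsin and a protease of many tissues, fell by 1.69 and 2.38 (adjusted p = 0.0170 and 0.0014). Ctsb and Ctsd were near 0 in TLS over kidney, at -0.25 and -0.03, and passed no test. March8, a ubiquitin ligase that removes class II and other proteins from the surface, was the 1 of 2 genes of turnover tested that changed. It had a value of 21.6 ± 5.64 (SD, n = 4) in kidney and 9.42 ± 2.28 (n = 3) in TLS and was lower in TLS than in kidney (log2 fold change -1.10, SE 0.31, adjusted p = 0.0298, limma). In proteinuric lymph nodes it had 4 reads over the 3 libraries, 1 to 2 in each and under the floor of 3, against 28 reads over the 3 TLS libraries, so the call of a lower level there (adjusted p = 0.0068, limma) is given with no fold. Of the 7 genes of the complex on the X and Y boxes, 3 passed the filter on low values (Rfxap, Nfya and Nfyc), and none was DE in TLS over kidney, with a median of 0.22.

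Of 5 genes tested on the interferon gamma arm, which induces Ciita, Irf1 was up-regulated in TLS over kidney, by 1.82 (log2, SE 0.47, adjusted p = 0.0213, limma). It was not DE between lymph node and TLS (0.87, adjusted p = 0.342, limma). Class I presentation, which shows peptides of the cell's own proteins to CD8 T cells, rose in 5 of 8 genes in TLS over kidney (B2m, H2-K1, Tap1, Psmb8 and Psmb9, median 1.78). Over all genes tested, 8.62% were called higher in TLS. In lymph node over kidney, 8 of 8 rose (median 2.47), where 20.8% of genes tested were called higher. The class II sum over the sum of B2m, H2-K1 and H2-D1 was 0.775 ± 0.222 (SD, n = 4) in kidney, 1.06 ± 0.286 (n = 3) in TLS and 1.46 ± 0.162 (n = 3) in proteinuric lymph nodes. Kidney and TLS overlapped in this ratio.

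The 10 genes varied together over the 14 libraries. The Pearson correlation of log2(value + 1) with the mean of the other members was between 0.95 and 0.99 for 9 genes and 0.85 for Ciita, the gene with the fewest reads. Kidney and lymphoid libraries form separate clusters, so these coefficients describe the step between them. Of the genes outside the set, Rac2, Vav1, Apobec3, Ptpn6, Sp110, Cnp, Selplg and Psmb9 had the profiles most like the mean of the members, with coefficients of 0.993 to 0.987 over 14 libraries among 7389 genes. Ccr6, Tnfrsf14 and Ikzf3 had the profiles most like Ciita, at 0.966, 0.965 and 0.964.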

How the data were processed

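Poly(A) RNA of 14 tissues was sequenced on an Ion Torrent PGM. For mapping and counting, the authors used CLC Genomics Workbench 8 at its defaults with GRCm38 as reference. The deposited table holds a normalized signal per gene and library. In 100% of values (tolerance 1e-06) it was a whole number of reads plus 1, divided by a DESeq size factor (0.563 to 1.27), so the reads were recovered. The 15 whole kidney libraries of another platform were not analysed here.

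The 3 tissues of proteinuric mice (10 libraries) were compared in one fit with limma 3.58.1 (trend and robust moderation, R 4.3.3) on log2(value + 1). Genes under a mean value of 5 were left out, and 7382 remained. The lymph node stages were compared in a fit of 6 libraries (6810 genes). This scale understates the change of low genes. DE means a Benjamini-Hochberg adjusted p under 0.05 over all genes tested. Alternatives were edgeR 4.0.16 (quasi-likelihood) and DESeq2 1.42.0 on the recovered reads, other filters, pseudocounts, scalings and left-out libraries. Shares have Wilson or exact intervals, which cover counting error only. Levels per kilobase use the median length of GENCODE transcripts.

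The members and the lists of other genes were chosen with earlier results of these data known. Genes named are the members, genes of the lists, the 8 genes most like the members' mean and the 3 most like Ciita. Ifng, Flt3 and Cd209a were not analysed here. A few other genes planned for the lists are not reported here.

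Tissues of one mouse are paired by the animal. Deviations from the tissue means correlated at 0.351 to 0.454 in the 3 kidney and TLS pairs of one mouse (median of -0.239 in 9 pairs of different mice), at -0.335 to 0.202 in 3 kidney and lymph node pairs, and at -0.266 and 0.0254 in 2 lymph node and TLS pairs. On simulated data (7179 genes, TLS over kidney) limma recovered 39% of 4-fold and 2% of 2-fold changes, with 8.89% false calls. The false share was 3.85% with edgeR and 18.1% with DESeq2.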

Additional observations from a re-analysis of the deposited data

How the results depend on the processing

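The alternatives of kidney versus lymph node called between 30.3% and 55.1% of all genes tested. The count of DE class II genes there was 10 of 10, or 8 of 8 tested with the filter at a mean value of 20. In kidney versus TLS it was 10 of 10 with DESeq2 and with edgeR and TMM, 9 with edgeR and DESeq2 size factors, 8 when scaled to reads outside ribosomal RNA, 7 of 9 tested when only the 2 tissues were fitted, 6 without the 3 libraries richest in ribosomal RNA (chosen after seeing the data), and between 4 (without TLS H6) and 10 when 1 library was left out; 7 were DE without kidney H115 and 7 without kidney H117. The share of all genes called ran from 7.16% (without TLS H6) to 23.4% (filter at a mean value of 20). It was 13.3% when scaled to reads outside ribosomal RNA and 11% when only the 2 tissues were fitted. Where tested, H2-Oa, H2-Ob and Ciita are part of the counts over kidney, where their calls add no support. All 197 alternative estimates of single genes kept their direction in kidney versus TLS, and 22 lost their call. In lymph node versus TLS the count of DE class II genes was 0 with edgeR, DESeq2, a filter at 20, a pseudocount of 0.1, scaling outside ribosomal RNA, the added read removed, fitting only the 2 tissues, the mouse as a replicate block, or the 3 libraries left out. It was 2 with all 7 lymph nodes (H2-Oa and H2-Ob), and 0 to 1 without 1 library. The replicate block changed no other call of the 10 genes. Over all genes tested, 5.46% to 17.3% were called in the alternatives of lymph node versus TLS, and 0% to 0.191% between lymph node stages. With edgeR and TMM the median of all genes was 0.12 in kidney versus TLS and -0.14 in lymph node versus TLS. With edgeR and DESeq2 size factors it was 0.016 and 0.039. Between lymph node stages the count was 0 throughout, and with 1 library left out the estimates changed sign in 6 genes. They ranged from -0.55 to 0.026 for Cd74, -0.14 to 0.26 for H2-Ab1, -0.62 to 0.035 for H2-DMb1, -0.54 to 0.016 for H2-DMb2, -0.19 to 0.27 for H2-Eb1, and -0.13 to 0.57 for H2-Ob. The young lymph node's share of reads was 1.36% outside ribosomal RNA. The cause of these changes was not tested. Ciita and H2-Oa rest on at most 25 and 54 reads per library.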

Other observations

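Of the genes that meet class II or act beside it in contacts with T cells, Cd4, Lag3, Cd83 and Cd86 were called higher in TLS than in kidney. Cd4 and Lag3 encode T-cell surface proteins that bind class II. Cd4 had a value of 1.59 ± 0.731 (SD, n = 4) in kidney and 15.3 ± 7.35 (SD, n = 3) in TLS (log2 fold change 2.61, SE 0.40, adjusted p = 0.00102, limma), with 2 reads over the 4 kidney libraries and 49 over the 3 of TLS. Lag3 had 0 reads in all 4 kidney libraries and between 3 and 12 in TLS, and was at least 7.41-fold higher in TLS against 3 reads over the kidney group. Cd4 and Lag3 passed the filter on low values through the TLS and lymph node libraries, so their calls add no support. Of 4 genes of costimulation tested, Cd83, which holds class II at the surface of activated cells, and Cd86, a ligand of CD28, were up-regulated in TLS, by 2.80 (SE 0.44, adjusted p = 0.00119) and 1.81 (SE 0.27, adjusted p = 0.000869). With Cd80, which was not tested, the costimulation list summed to between 0 and 18.6 in kidney and between 41.4 and 61.3 in TLS. These calls thus rest on low kidney levels. Cd40 (1.11, adjusted p = 0.062) and Icosl (1.57, adjusted p = 0.0506) did not pass the test in TLS. All 4 tested were DE in lymph node over kidney, with a median of 2.47, where 43.8% of genes tested were DE in either direction. None was DE in lymph node versus TLS. Of the 2 partners of CD74 at the surface, Cd44 was DE in lymph node over kidney (1.59, SE 0.49, adjusted p = 0.018) and neither was in TLS over kidney (Cd44 1.06, adjusted p = 0.170, and Mif -0.58, adjusted p = 0.323, limma). In the plasma cell list, cells that make antibody and shut down Ciita, 3 of 4 genes tested (Igj, Xbp1 and Sdc1) were higher in TLS than in kidney.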
